A study of Mus musculus with 5 samples.

Results

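The replication fork machinery is taken here as 46 listed genes of the mouse DNA replication apparatus, matched by symbol. The genes were listed with earlier results of these data known. They cover origin recognition, origin firing, the 3 replicative DNA polymerases, the sliding clamp and its loader, the single-strand binding protein RPA, Okazaki fragment processing, fork protection and chromatin assembly, with the MCM helicase left out. All 46 were found among the 24594 genes of the deposited table, and all 46 were among the 16316 genes that passed a filter on low values. They were compared between 3 mouse retina RNA-seq libraries labelled Zfp292-OE and 2 Control libraries. The libraries labelled Zfp292-OE came from retinas electroporated in vivo at postnatal day 0 with a CAG-Zfp292 plasmid. The Control libraries came from retinas electroporated at the same age with CAG-GFP. CAG is a strong promoter that is active in most cell types. In both groups the retinas were taken 4 days later, and the cells collected by sorting for GFP were named RPC in the labels. No label says if separate animals stand behind the libraries of a group, so each p-value refers to the spread of these libraries alone, which may be technical.

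Replication starts when the origin recognition complex (ORC) marks a stretch of DNA and an MCM helicase is loaded there. At the start of S phase the kinase of Cdc7 and Dbf4 helps to turn that loaded helicase into an active one by joining it to Cdc45 and GINS, after which polymerases copy both strands, PCNA holds them on DNA, and histones are put back behind the fork. In the retina many of these genes are known for their expression in dividing progenitor cells, and neurons that have left the cell cycle lose most of it.

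Set against Control, 39 of the 46 genes passed a limma adjusted p of 0.05 with a higher level in the libraries labelled Zfp292-OE, and 0 with a lower one. Over all 16316 genes tested, 10% were called higher and 7.38% lower. Over the 46 genes, edgeR called 35 higher (8.28% of all genes tested) and DESeq2 42 (14.6%). No member was lower at an unadjusted p below 0.05 in limma, a level that 32.8% of all tested genes reached in either direction. None was called lower by edgeR or DESeq2, which called 7.78% and 11.5% of all genes lower. The median log2 fold change of the 46 was 1.36, or 2.57-fold, and that of all tested genes was −0.06. Those called lay between 1.55-fold (Pole4) and 5.76-fold (Pole2): 7 were above 4-fold, 21 between 2-fold and 4-fold, and 11 under 2-fold, where 8.48% of all tested genes were estimated above 2-fold. The 7 that did not pass were Orc2, Orc5, Pola2, Pold1, Pold4, Rpa1 and Chaf1a. In 43 members every library labelled Zfp292-OE was above both Control libraries, a pattern found in 24.3% of all tested genes. Orc5, Pold4 and Chaf1a were the 3 whose groups overlapped. In RNA from sorted but mixed cells, more dividing cells and more replication RNA per dividing cell cannot be told apart.

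**Figure D1:**
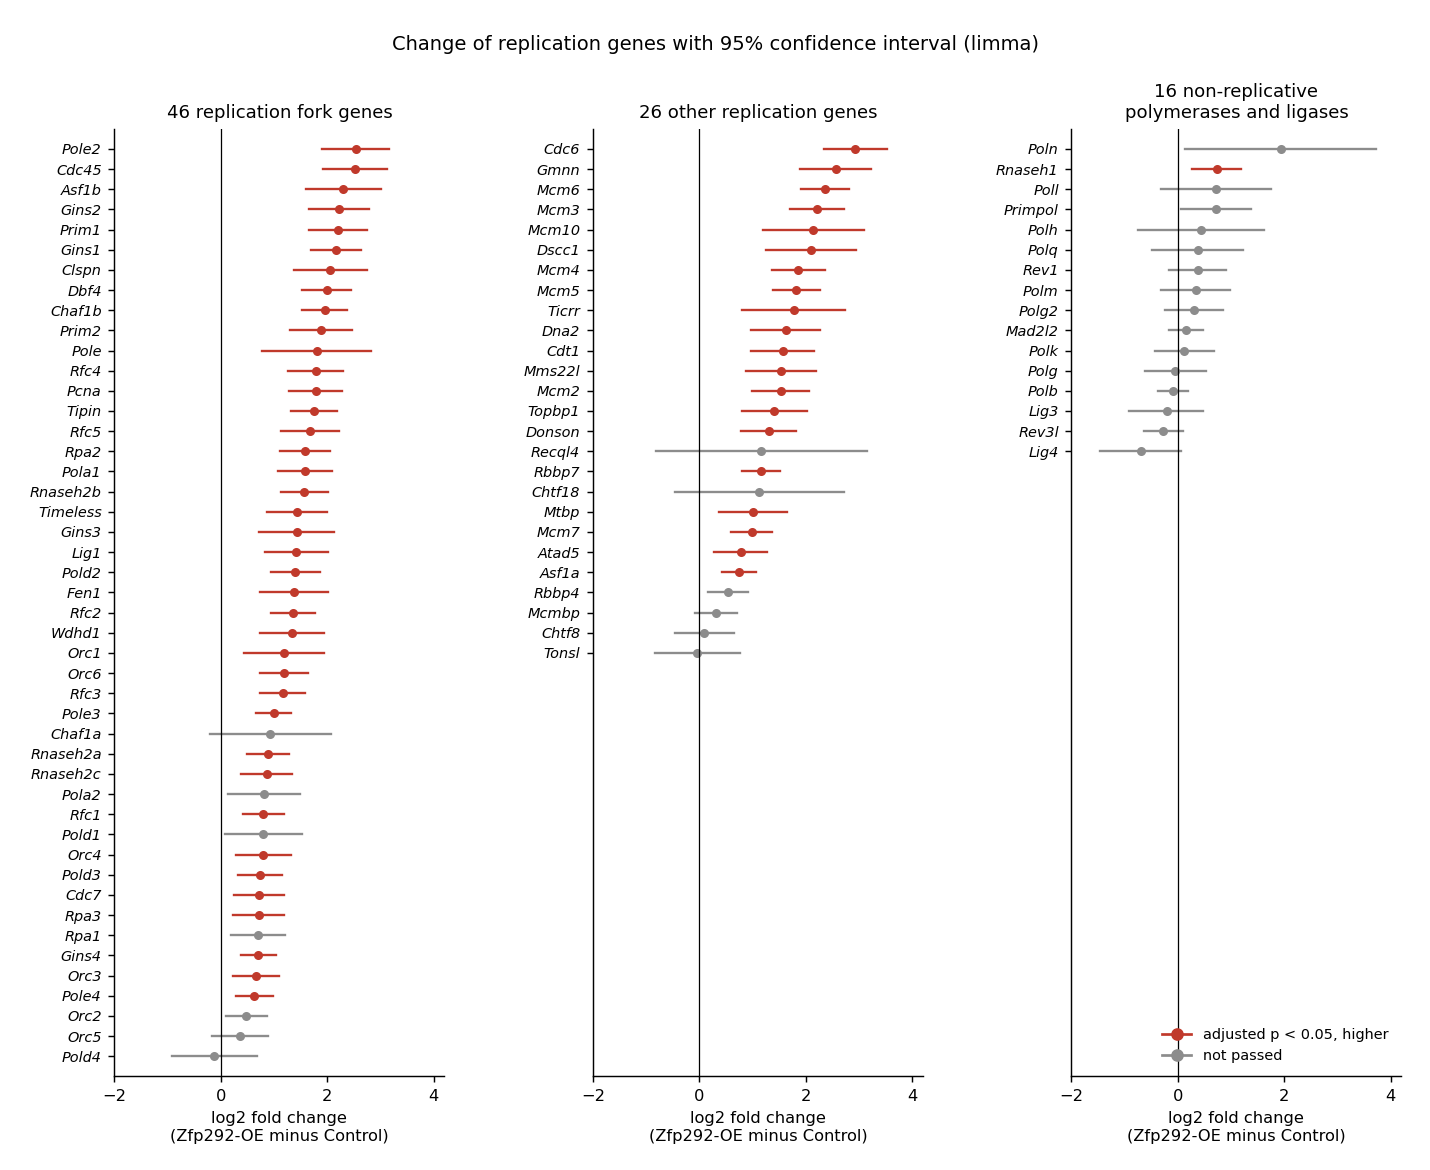
Log2 fold change (Zfp292-OE minus Control) of each gene with its 95% confidence interval, for the 46 replication fork genes and 26 other replication genes. The right panel shows the same for 16 polymerases, ligases and related enzymes with no main part in copying the nuclear genome. Red points passed an adjusted p of 0.05 in limma and grey points did not; 39 of the 46 in the left panel are red, and Pold4 is the one below 0.

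Values below are normalised read counts, in which the reads of a gene are divided by 1 factor per library, and each trio or pair follows the library numbers. The Zfp292 gene itself (Entrez 30046, mouse chromosome 4, 34803110 to 34882983 in GRCm38.p6) had 14631, 13197 and 15534 in the libraries labelled Zfp292-OE, against 13288 and 14756 in the Control libraries. Means and SDs were 14454 ± 1179 for the 3 libraries labelled Zfp292-OE and 14022 ± 1038 for the 2 Control libraries. The fitted ratio was 1.03, with a 95% interval of 0.823 to 1.29 (limma adjusted p = 0.87, and between 0.45 and 0.98 in 19 alternatives). Zfp292 RNA was therefore not detectably higher in the libraries that carry its name, and every direction below is that of the label. How reads from the plasmid were assigned is not given in the sources used here, so the value may leave out plasmid RNA and does not check the labels. The 5 libraries held 103096224 to 137683716 reads assigned to genes. Between 297 reads (Chaf1a) and 112054 reads (Tipin) fell on a member in any one library.

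The promoters of these genes are shown first, since E2F factors, the transcription factors known for switching on replication genes at the start of S phase, recognise a short sequence there. RefSeq promoter windows of GRCm38.p6, from 250 bases before to 50 bases after each annotated start, were at hand for 38 of the 46 genes, in 47 windows. An E2F motif, searched as TTTCCCGC, TTTGGCGC, TTTCGCGC or TTTGCCGC on both strands, was in 12 of the 47 windows (25.5%), belonging to 11 genes, against 2.26% of 32851 windows of all genes and 3.65% of those of the tested genes. In Orc1, Orc3, Gins3, Pola1, Pole4 and Rfc3 a match lay before the start. Their last 180 bases before the start are printed below from 5′ to 3′ in the direction of the gene, with the E2F match in capitals. In GRCm38.p6 the stretches are Pole4 at chr6:82652866-82653045 on the minus strand, Orc3 at chr4:34614943-34615122 on the minus strand, Rfc3 at chr5:151651209-151651388 on the minus strand, Orc1 at chr4:108579274-108579453 on the plus strand, Gins3 at chr8:95633379-95633558 on the plus strand and Pola1 at chrX:93632156-93632335 on the minus strand.
Pole4: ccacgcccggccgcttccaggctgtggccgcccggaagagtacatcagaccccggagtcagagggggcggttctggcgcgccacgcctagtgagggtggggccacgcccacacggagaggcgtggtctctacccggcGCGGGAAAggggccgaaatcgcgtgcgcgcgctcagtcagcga
Orc3: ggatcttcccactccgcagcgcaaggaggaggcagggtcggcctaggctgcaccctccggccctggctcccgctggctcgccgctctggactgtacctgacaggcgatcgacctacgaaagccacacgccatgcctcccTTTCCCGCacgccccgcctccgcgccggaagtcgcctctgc
Rfc3: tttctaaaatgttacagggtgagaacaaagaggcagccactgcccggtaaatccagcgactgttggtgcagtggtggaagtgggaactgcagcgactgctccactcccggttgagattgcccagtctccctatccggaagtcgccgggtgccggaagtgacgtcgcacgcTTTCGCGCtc
Orc1: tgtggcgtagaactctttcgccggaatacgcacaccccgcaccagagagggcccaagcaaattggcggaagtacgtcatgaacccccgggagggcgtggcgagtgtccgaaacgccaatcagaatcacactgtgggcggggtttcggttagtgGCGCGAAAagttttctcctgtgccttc
Gins3: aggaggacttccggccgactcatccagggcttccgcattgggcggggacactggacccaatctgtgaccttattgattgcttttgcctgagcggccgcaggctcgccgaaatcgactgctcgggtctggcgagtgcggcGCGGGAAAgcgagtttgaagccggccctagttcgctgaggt
Pola1: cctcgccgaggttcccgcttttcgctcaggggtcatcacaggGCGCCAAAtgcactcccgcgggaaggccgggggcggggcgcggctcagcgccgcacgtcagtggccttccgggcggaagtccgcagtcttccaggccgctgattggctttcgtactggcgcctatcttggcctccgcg
In 5 of the 6 the capitals lie within the last 50 bases, and in Pola1 they lie farther upstream. Clspn, Lig1, Pold1, Pold3 and Pole2 had a match only after the start, and Rfc3 had a further match there. The 11 genes with a match had a median log2 fold change of 1.19, and the 27 without one had 1.18. Pole2, at a log2 fold change of 2.53, and Pole4, at 0.63, both had a match.

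The CHR element (TTTGAA) and the CCAAT box, which are found in promoters of genes expressed late in the cell cycle, were searched in the same windows on both strands. CHR was in 19.1% of the members' windows, against 17.9% of all windows and 12.4% of those of the tested genes. CCAAT was in 44.7% of the members' windows, against 37.4% of all windows and 37.8% of those of the tested genes. The 8 genes with CHR had a median log2 fold change of 1.41 and the 30 without it 1.07. The 20 genes with CCAAT had 1.18 and the 18 without it 1.16. Asf1b, which was called 4.93-fold higher, is shown as the promoter with 3 CCAAT matches (read as ATTGG on this strand) and 1 CHR match in its last 180 bases, all in capitals, at chr8:83955514-83955693 on the plus strand.
Asf1b: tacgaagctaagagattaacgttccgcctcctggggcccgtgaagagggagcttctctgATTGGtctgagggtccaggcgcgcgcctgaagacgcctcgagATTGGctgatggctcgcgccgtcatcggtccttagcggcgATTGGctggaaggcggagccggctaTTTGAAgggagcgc
A match describes letters in a window and is not a measured binding site.

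**Figure D2:**
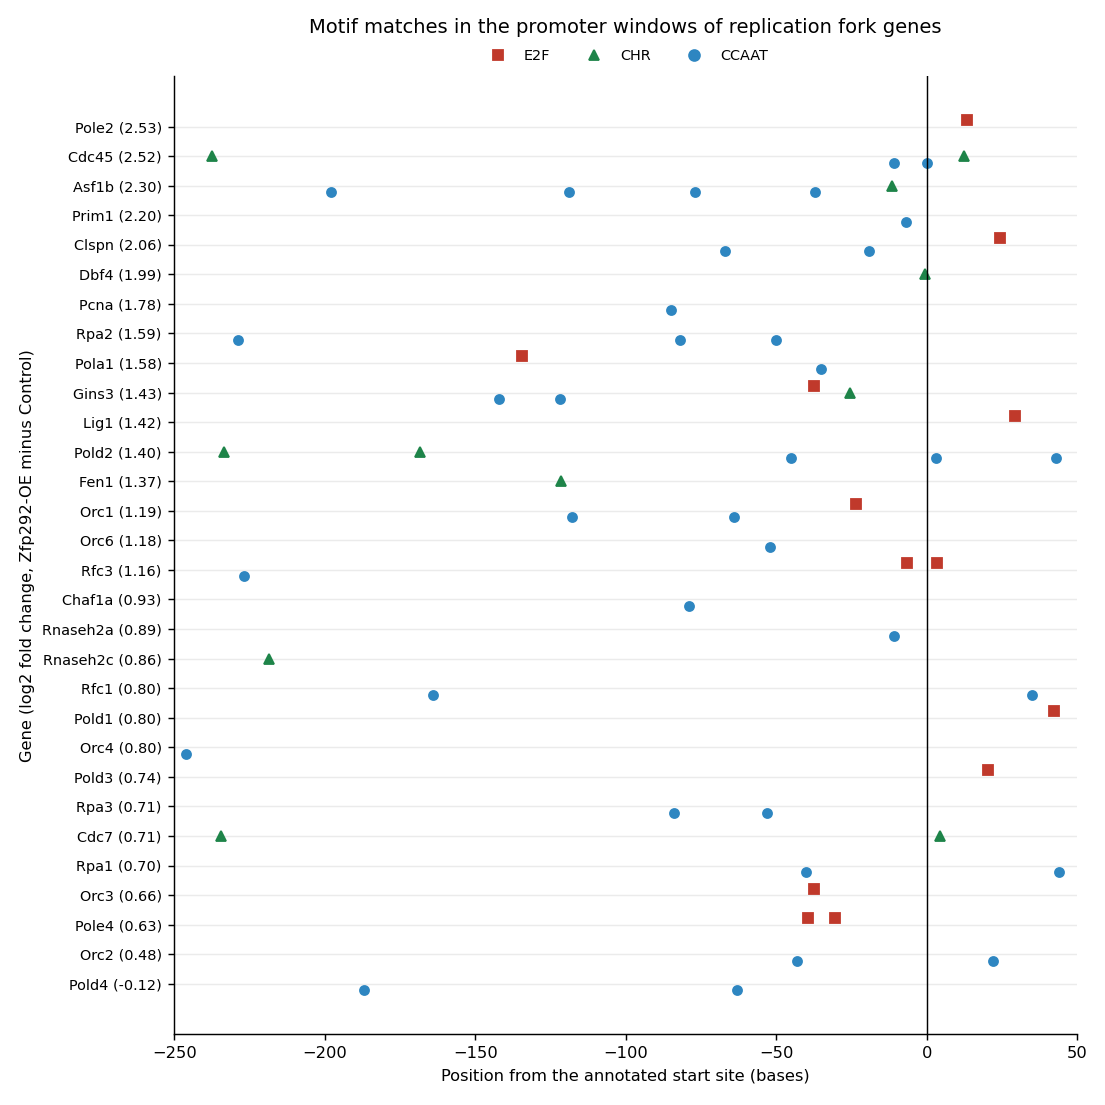
Matches to the E2F, CHR and CCAAT motifs along the promoter windows of replication fork genes with at least 1 match, by distance from the annotated start site in bases, with genes ordered by log2 fold change (Zfp292-OE minus Control). E2F squares appear from Pole2 at 2.53 down to Pole4 at 0.63, and all but that of Pola1 lie within 50 bases of the start.

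ORC, the complex that binds origins, had the smallest shifts together with RPA and polymerase delta: 4 of its 6 genes passed, with a median log2 fold change of 0.73. Orc1, an ATPase of the complex, had 851, 816 and 1003 in the libraries labelled Zfp292-OE, against 462 and 327 in the Control libraries (log2 fold change 1.19 ± 0.33 SE, limma adjusted p = 0.037). Orc6, the smallest subunit, had 27131, 26468 and 17709 in the libraries labelled Zfp292-OE, against 11515 and 9224 in the Control libraries, and was higher by 2.26-fold (limma adjusted p = 0.0048). The groups were separate for both genes. Library 3 labelled Zfp292-OE was the highest of its group for Orc1 and the lowest for Orc6. Orc3, a subunit that binds Orc2, had 18551, 18438 and 20642 in the libraries labelled Zfp292-OE, against 15418 and 9614 in the Control libraries, or 1.58-fold (limma adjusted p = 0.045). Orc4, another ATPase-type subunit, had 32461, 23876 and 29096 in the libraries labelled Zfp292-OE, against 21755 and 12098 in the Control libraries, or 1.74-fold (limma adjusted p = 0.042). In both genes Control library 2 was far below Control library 1. The log2 fold change of Orc3 was 1.0 without Control library 1 and 0.32 without Control library 2. That of Orc4 was 1.22 without Control library 1 and 0.38 without Control library 2. Orc2, which did not pass in limma, had 5084, 5594 and 4934 in the libraries labelled Zfp292-OE, against 3995 and 3459 in the Control libraries (log2 fold change 0.48 ± 0.17 SE, limma adjusted p = 0.08, 95% interval 0.10 to 0.86). DESeq2 gave Orc2 an adjusted p of 0.027 and edgeR 0.11. Orc5 had 13376, 14235 and 13163 in the libraries labelled Zfp292-OE, against 14576 and 7707 in the Control libraries (log2 fold change 0.36 ± 0.23 SE, limma adjusted p = 0.32, 95% interval -0.16 to 0.88). Control library 1 was the highest of the 5 libraries for Orc5 and Control library 2 the lowest, so its groups overlapped. Control library 2 was above Control library 1 in 0 of 6 ORC genes and in 10 of all 46 members, against 49.6% of all tested genes.

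Of the origin firing factors 7 of 7 passed, with a median log2 fold change of 1.99. Cdc45, which joins the MCM helicase to form the active helicase, had 12814, 13832 and 7236 in the libraries labelled Zfp292-OE, against 2134 and 1672 in the Control libraries (log2 fold change 2.52 ± 0.27 SE, limma adjusted p = 0.00055), a 5.75-fold difference. Dbf4, the subunit that switches on the Cdc7 kinase, had 9904, 12872 and 8202 in the libraries labelled Zfp292-OE, against 2387 and 2739 in the Control libraries (log2 fold change 1.99 ± 0.21 SE, limma adjusted p = 0.00049). Its partner Cdc7, the kinase that phosphorylates MCM proteins, had 6827, 6357 and 4586 in the libraries labelled Zfp292-OE, against 3876 and 3268 in the Control libraries, and was 1.64-fold (limma adjusted p = 0.042) higher. Both subunits of that kinase were separate between the groups, and the activating subunit differed by more than the catalytic one. The 4 GINS subunits, which form a ring-shaped complex beside Cdc45, were unequal in the same way. Gins1 had 12930, 14546 and 9007 in the libraries labelled Zfp292-OE, against 2695 and 2594 in the Control libraries (log2 fold change 2.17 ± 0.21 SE, limma adjusted p = 0.0004). Gins2 had 11955, 11495 and 6510 in the libraries labelled Zfp292-OE, against 2121 and 2020 in the Control libraries (log2 fold change 2.22 ± 0.26 SE, limma adjusted p = 0.00069). These 2 were 4.51-fold and 4.65-fold higher. Gins3 had 2291, 2520 and 1444 in the libraries labelled Zfp292-OE, against 922 and 616 in the Control libraries, or 2.69-fold (limma adjusted p = 0.015). Gins4 had 17361, 17315 and 14334 in the libraries labelled Zfp292-OE, against 10488 and 9524 in the Control libraries, or 1.63-fold (limma adjusted p = 0.013). Per kb of transcript, Gins4 was the most abundant of the 4 in Control, at a mean of 7420 counts per kb, and it had the smallest change of the firing factors.

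**Figure D3:**
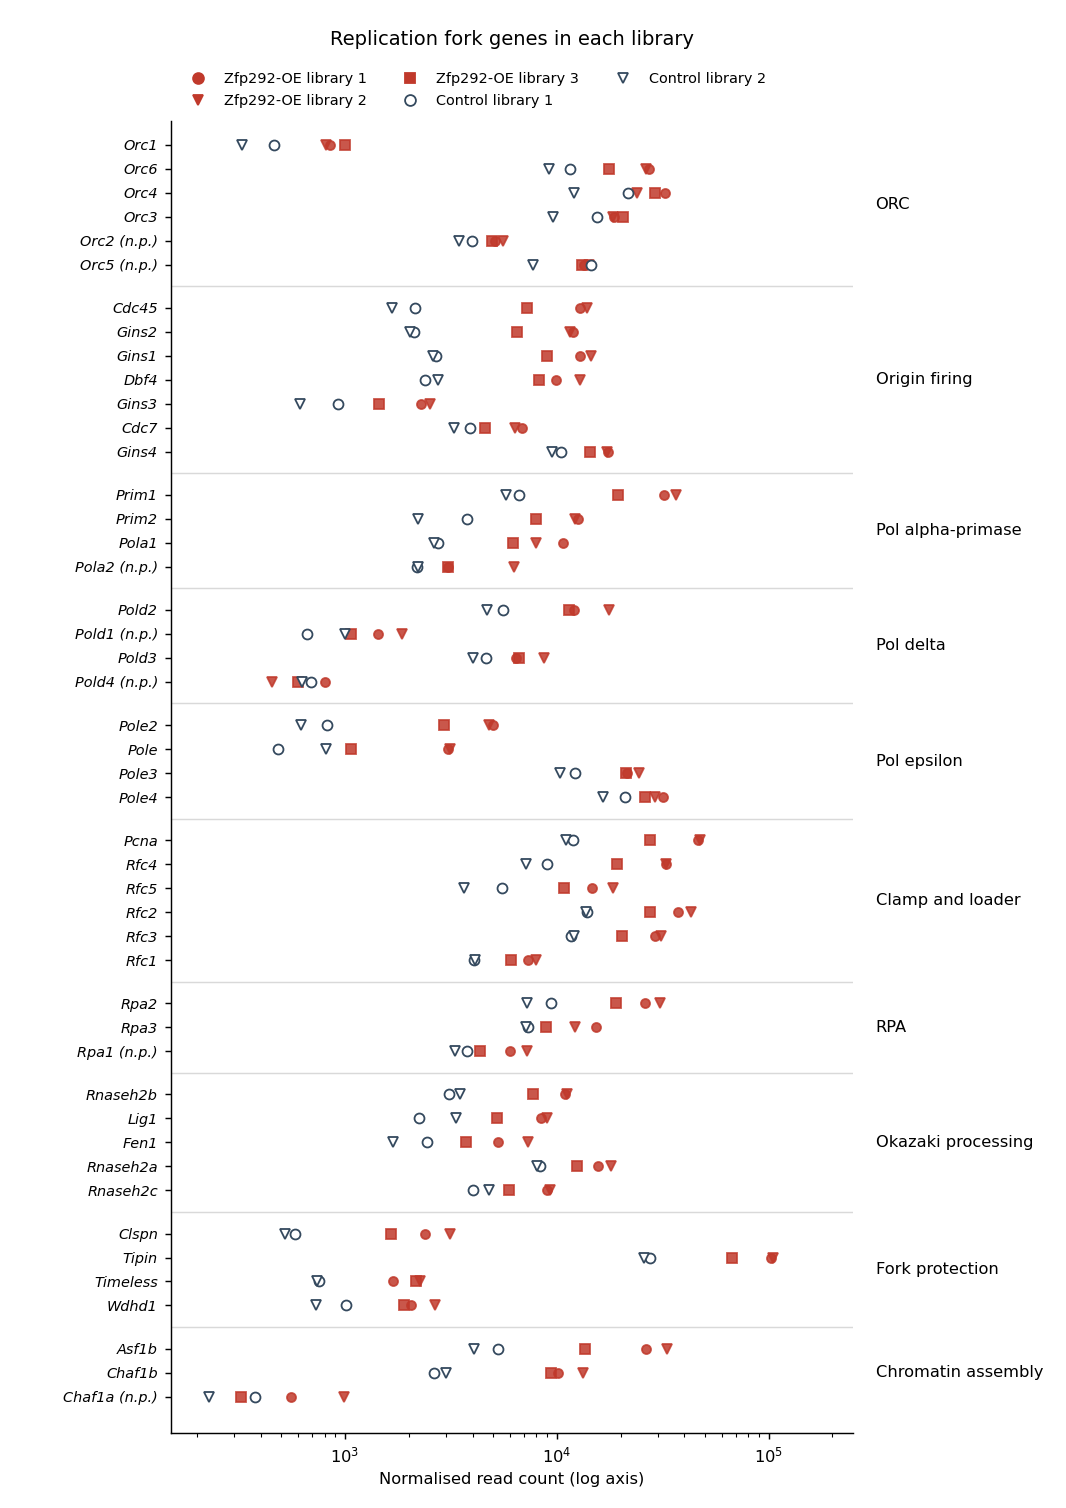
Normalised read count (log axis) of each of the 46 genes in each library, grouped by role and ordered within a group by log2 fold change, with red filled symbols for Zfp292-OE and open symbols for Control; n.p. marks genes that did not pass an adjusted p of 0.05. The red symbols lie to the right of both open ones in 43 genes, and the square of library 3 labelled Zfp292-OE is the leftmost red symbol in 39.

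Polymerase alpha with its primase makes the short primers from which each fragment is extended, and 3 of its 4 genes passed. Prim1, the catalytic primase subunit, had 32256, 36689 and 19459 in the libraries labelled Zfp292-OE, against 6626 and 5764 in the Control libraries (log2 fold change 2.20 ± 0.24 SE, limma adjusted p = 0.00059), or 4.6-fold. Prim2, the large primase subunit, had 12626, 12170 and 7962 in the libraries labelled Zfp292-OE, against 3786 and 2223 in the Control libraries, or 3.69-fold (limma adjusted p = 0.0017). Pola1, the catalytic polymerase subunit, had 10735, 7955 and 6209 in the libraries labelled Zfp292-OE, against 2756 and 2643 in the Control libraries, or 3.0-fold (limma adjusted p = 0.0018). All 3 were separate between the groups, with library 3 labelled Zfp292-OE the lowest of its group. Pola2, the regulatory subunit, had 3056, 6266 and 3071 in the libraries labelled Zfp292-OE, against 2190 and 2218 in the Control libraries (log2 fold change 0.82 ± 0.3 SE, limma adjusted p = 0.091, 95% interval 0.14 to 1.49). Its groups did not overlap, but libraries 1 and 3 labelled Zfp292-OE stood well below library 2. DESeq2 gave Pola2 an adjusted p of 0.028, and the 19 alternatives gave 0.027 to 0.4.

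Polymerase delta, which copies the lagging strand, split evenly. Pold2, an accessory subunit, had 12052, 17715 and 11363 in the libraries labelled Zfp292-OE, against 5580 and 4659 in the Control libraries (log2 fold change 1.40 ± 0.21 SE, limma adjusted p = 0.0023), and Pold3, the subunit with a PCNA-binding motif, had 6399, 8714 and 6649 in the libraries labelled Zfp292-OE, against 4641 and 4003 in the Control libraries, or 1.67-fold (limma adjusted p = 0.025). The catalytic subunit Pold1 had 1426, 1866 and 1063 in the libraries labelled Zfp292-OE, against 658 and 1005 in the Control libraries (log2 fold change 0.80 ± 0.32 SE, limma adjusted p = 0.12, 95% interval 0.07 to 1.52). Pold1 was separate between the groups by a narrow margin, with library 3 labelled Zfp292-OE just above Control library 2. Pold4, the smallest subunit, had 801, 452 and 602 in the libraries labelled Zfp292-OE, against 687 and 626 in the Control libraries (log2 fold change -0.12 ± 0.36 SE, limma adjusted p = 0.84, 95% interval -0.92 to 0.67). It was the one member with a negative estimate, which was uncalled and moved between −0.34 and 0.08 over the alternatives.

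Polymerase epsilon, which copies the leading strand, had 4 of 4 genes called. Pole2, its accessory B subunit, had 5021, 4781 and 2925 in the libraries labelled Zfp292-OE, against 824 and 621 in the Control libraries (log2 fold change 2.53 ± 0.28 SE, limma adjusted p = 0.00059), the largest fold of the 46. Pole, the catalytic subunit, had 3070, 3137 and 1064 in the libraries labelled Zfp292-OE, against 482 and 811 in the Control libraries (log2 fold change 1.80 ± 0.46 SE, limma adjusted p = 0.026). Library 3 labelled Zfp292-OE was close to Control library 2 for Pole and far above it for Pole2. The histone-fold subunits Pole3 and Pole4, which help the polymerase handle histones, changed less. Pole3 had 21356, 24328 and 21306 in the libraries labelled Zfp292-OE, against 12245 and 10331 in the Control libraries, or 1.98-fold (limma adjusted p = 0.0023). Pole4 had 31800, 29036 and 26080 in the libraries labelled Zfp292-OE, against 20992 and 16608 in the Control libraries, or 1.55-fold (limma adjusted p = 0.023).

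The clamp and its loader passed in 6 of 6 genes, with a median log2 fold change of 1.51. PCNA, the ring that holds polymerases on DNA and a common marker of S phase, had 46666, 47594 and 27609 in the libraries labelled Zfp292-OE, against 11959 and 11004 in the Control libraries (log2 fold change 1.78 ± 0.22 SE, limma adjusted p = 0.001), or 3.44-fold. The genome annotation also lists Pcna pseudogenes, and how shared reads were counted is not given in the sources used here. The loader, replication factor C, opens and closes that ring. Its large subunit Rfc1 had 7343, 8008 and 6057 in the libraries labelled Zfp292-OE, against 4059 and 4089 in the Control libraries, or 1.74-fold (limma adjusted p = 0.014). The small subunit Rfc2 had 37233, 42931 and 27631 in the libraries labelled Zfp292-OE, against 13939 and 13728 in the Control libraries, or 2.56-fold (limma adjusted p = 0.0015). Rfc1 changed least of the complex, and both stood apart between the groups. Rfc3 had 29188, 31151 and 20284 in the libraries labelled Zfp292-OE, against 11675 and 12051 in the Control libraries, or 2.23-fold (limma adjusted p = 0.0036). Rfc4 had 32806, 32888 and 19342 in the libraries labelled Zfp292-OE, against 8951 and 7171 in the Control libraries, or 3.44-fold (limma adjusted p = 0.0012). Rfc5 had 14623, 18417 and 10804 in the libraries labelled Zfp292-OE, against 5499 and 3637 in the Control libraries, or 3.19-fold (limma adjusted p = 0.0021). In all 6 genes library 2 labelled Zfp292-OE was the highest and library 3 the lowest of its group.

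RPA coats single-stranded DNA at the fork, and 2 of its 3 genes passed. Rpa2, the subunit phosphorylated in the cell cycle and after damage, had 26116, 30630 and 18989 in the libraries labelled Zfp292-OE, against 9362 and 7249 in the Control libraries (log2 fold change 1.59 ± 0.21 SE, limma adjusted p = 0.0013). Rpa3, the smallest subunit, had 15368, 12131 and 8887 in the libraries labelled Zfp292-OE, against 7319 and 7167 in the Control libraries, or 1.63-fold (limma adjusted p = 0.048). Rpa1, the large subunit that carries most of the DNA contacts, had 6027, 7261 and 4359 in the libraries labelled Zfp292-OE, against 3777 and 3310 in the Control libraries (log2 fold change 0.70 ± 0.22 SE, limma adjusted p = 0.058, 95% interval 0.20 to 1.20). The groups were separate for all 3. Rpa1 passed in DESeq2 (adjusted p = 0.015) and without library 3 labelled Zfp292-OE (limma adjusted p = 0.02). Rpa1 also passed in limma with a filter at a mean of 50, and with the replicate number as a block (limma adjusted p = 0.019). It did not pass in edgeR (adjusted p = 0.07) or with equal totals (limma adjusted p = 0.14).

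Okazaki processing enzymes, which remove primers and join fragments, passed in 5 of 5. Lig1, the ligase of the lagging strand, had 8414, 8982 and 5236 in the libraries labelled Zfp292-OE, against 2233 and 3356 in the Control libraries (log2 fold change 1.42 ± 0.26 SE, limma adjusted p = 0.0067), and Fen1, the nuclease that trims displaced flaps, had 5303, 7327 and 3711 in the libraries labelled Zfp292-OE, against 2427 and 1684 in the Control libraries, or 2.59-fold (limma adjusted p = 0.011). Both enzymes were higher by more than 2-fold. RNase H2 removes RNA paired with DNA, and its catalytic subunit Rnaseh2a had 15602, 17982 and 12400 in the libraries labelled Zfp292-OE, against 8297 and 8027 in the Control libraries, or 1.86-fold (limma adjusted p = 0.0086). Rnaseh2b had 10949, 11162 and 7723 in the libraries labelled Zfp292-OE, against 3109 and 3499 in the Control libraries, or 2.97-fold (limma adjusted p = 0.001). Rnaseh2c had 8977, 9279 and 5980 in the libraries labelled Zfp292-OE, against 4008 and 4768 in the Control libraries, or 1.81-fold (limma adjusted p = 0.024). The accessory B subunit thus differed more than the catalytic subunit or the C subunit, and no groups overlapped.

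Fork protection factors keep the helicase and polymerases coupled and pass signals to the checkpoint, and 4 of 4 passed. Clspn, the adaptor through which the ATR kinase reaches Chk1, had 2379, 3122 and 1646 in the libraries labelled Zfp292-OE, against 582 and 521 in the Control libraries (log2 fold change 2.06 ± 0.31 SE, limma adjusted p = 0.0023). Timeless, which forms a complex with Tipin, had 1686, 2249 and 2166 in the libraries labelled Zfp292-OE, against 755 and 735 in the Control libraries, or 2.7-fold (limma adjusted p = 0.0052). Tipin had 102281, 105315 and 67257 in the libraries labelled Zfp292-OE, against 27453 and 25920 in the Control libraries (log2 fold change 1.75 ± 0.19 SE, limma adjusted p = 0.00059). Per kb of transcript Tipin averaged 75700 counts in the libraries labelled Zfp292-OE and 22000 in Control, and its partner Timeless 462 in the libraries labelled Zfp292-OE and 169 in Control. Wdhd1, which ties polymerase alpha to the helicase, had 2040, 2664 and 1892 in the libraries labelled Zfp292-OE, against 1015 and 729 in the Control libraries, or 2.53-fold (limma adjusted p = 0.0093). The lowest library labelled Zfp292-OE was above the highest Control library in each of the 4.

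Chromatin assembly factors put histones back on new DNA, and 2 of 3 passed. Asf1b, a chaperone of H3 and H4 linked to dividing cells, had 26512, 33004 and 13560 in the libraries labelled Zfp292-OE, against 5256 and 4068 in the Control libraries (log2 fold change 2.30 ± 0.32 SE, limma adjusted p = 0.0015). Chaf1b, the middle subunit of chromatin assembly factor CAF-1, had 10100, 13349 and 9429 in the libraries labelled Zfp292-OE, against 2634 and 2992 in the Control libraries, or 3.86-fold (limma adjusted p = 0.0004). Chaf1a, the large CAF-1 subunit that binds PCNA, had 553, 986 and 323 in the libraries labelled Zfp292-OE, against 376 and 229 in the Control libraries (log2 fold change 0.93 ± 0.51 SE, limma adjusted p = 0.23, 95% interval -0.20 to 2.07). Library 3 labelled Zfp292-OE lay below Control library 1 for Chaf1a, so the groups overlapped.

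Exons of 13 of the 46 genes overlap those of a gene on the opposite strand, and whether counting used strand is not given in the sources used here. In 6 of these pairs the neighbour averaged more counts than the member in both groups: Ubxn6 beside Chaf1a, Nif3l1 beside Orc2, Prdx2 beside Rnaseh2a, Tmem258 beside Fen1, Vps35 beside Orc6 and Ufd1 beside Cdc45. Ubxn6, which shares 1862 exon bases with Chaf1a, averaged 1046 counts in the libraries labelled Zfp292-OE and 1301 in Control. Nif3l1, which shares 854 with Orc2, averaged 18385 in the libraries labelled Zfp292-OE and 14650 in Control. Prdx2 shares 154 with Rnaseh2a and averaged 260292 in the libraries labelled Zfp292-OE and 214455 in Control. The values of these members are uncertain to that extent, and the part of the neighbours was not tested. The other 3 overlaps span 52 to 130 bases. Of the remaining 7 pairs, Eif4a2 and Wsb2 were above Rfc4 and Rfc5 in Control alone. The longest overlap, 2758 bases between Gins2 and Gse1, involves a neighbour that averaged 1369 counts in the libraries labelled Zfp292-OE and 1456 in Control, below Gins2 in both groups.

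Subunits of 1 complex did not all move by the same amount. The log2 ratio of Cdc45 to Gins4 was -0.44, -0.32 and -0.99 in the libraries labelled Zfp292-OE, against -2.30 and -2.51 in the Control libraries. For Pole2 over Pole4 it was -2.66, -2.60 and -3.16 in the libraries labelled Zfp292-OE, against -4.67 and -4.74 in the Control libraries. For Rpa2 over Rpa1 it was 2.12, 2.08 and 2.12 in the libraries labelled Zfp292-OE, against 1.31 and 1.13 in the Control libraries. In each of these 3 ratios the 2 groups were separate, and the ratio of Rpa2 to Rpa1 hardly varied between the libraries labelled Zfp292-OE. Pold2 over Pold4 was 3.91, 5.29 and 4.24 in the libraries labelled Zfp292-OE, against 3.02 and 2.89 in the Control libraries. These pairs are the genes with the largest and smallest change of their role group, so their difference is a description and was not tested.

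**Figure D4:**
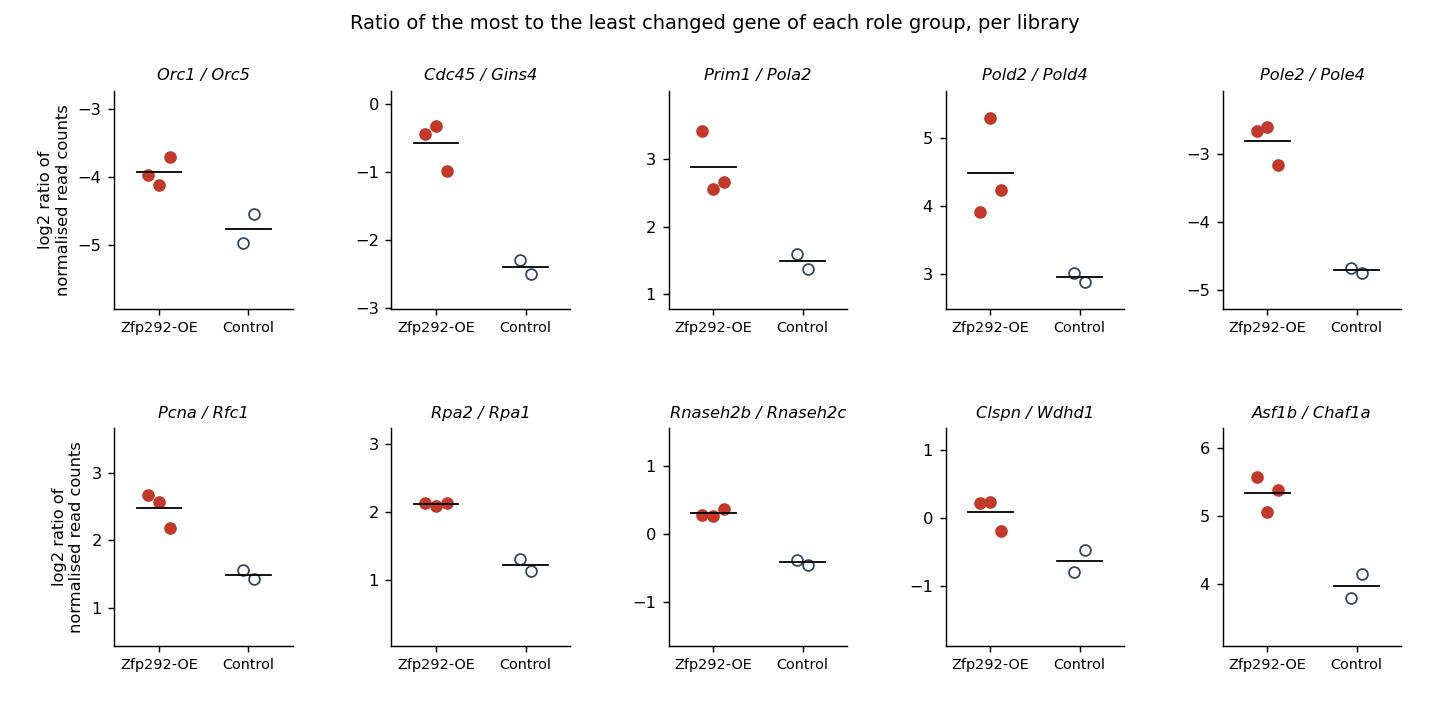
Log2 ratio of the normalised read counts of the most and the least changed gene of each of the 10 role groups, 1 point per library with the group mean as a bar, Zfp292-OE left and Control right. The y axes differ in their start and share the same kind of unit; Cdc45 over Gins4 averages −0.58 in Zfp292-OE and −2.40 in Control.

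Counterparts that are not members gave a second kind of ratio, in 5 pairs. These partners were not all unchanged. Asf1a, from a list of other replication genes given below, was itself called higher (log2 fold change 0.74, limma adjusted p = 0.008). Rnaseh1 was also called higher, at 0.73 (limma adjusted p = 0.039). Primpol at 0.71, Lig3 at -0.21 and Lig4 at -0.7 did not pass, although the groups were separate for Primpol and Lig4. Each ratio therefore holds the change of the partner as well as that of the member. Lig1 over Lig3, a ligase of repair and mitochondria, had a log2 ratio of 3.72, 3.43 and 2.46 in the libraries labelled Zfp292-OE, against 1.09 and 2.04 in the Control libraries. Lig1 over Lig4, the ligase of end joining, had 4.43, 4.29 and 3.57 in the libraries labelled Zfp292-OE, against 1.83 and 2.11 in the Control libraries. Prim1 over Primpol, a primase that restarts stalled forks, had 4.60, 4.76 and 4.19 in the libraries labelled Zfp292-OE, against 2.84 and 3.21 in the Control libraries. The differences of the group means were 1.64, 2.13 and 1.49. Asf1b over its paralog Asf1a had -0.08, 0.45 and -0.79 in the libraries labelled Zfp292-OE, against -1.43 and -1.96 in the Control libraries, a difference of 1.56. In these 4 pairs the groups were separate, which gave an exact two-sided permutation p of 0.2 (0.25 adjusted over the 5 pairs). This is the smallest p that the test used, which doubles the smaller tail, can give for 3 against 2 libraries. Rnaseh2a over Rnaseh1, which also removes RNA from hybrids, had 2.70, 2.87 and 2.47 in the libraries labelled Zfp292-OE, against 2.52 and 2.50 in the Control libraries, a difference of 0.17 (exact two-sided permutation p = 0.6).

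In levels per kb of transcript the 46 genes spanned a wide range in both groups. Pole4 averaged 44700 normalised counts per kb in the libraries labelled Zfp292-OE and 29000 in Control, and Rpa3 averaged 18100 in the libraries labelled Zfp292-OE and 10800 in Control. Pcna averaged 26800 in the libraries labelled Zfp292-OE and 7560 in Control. At the low end, Chaf1a averaged 112 in the libraries labelled Zfp292-OE and 54.6 in Control. Pole averaged 338 in the libraries labelled Zfp292-OE and 90.2 in Control, and Clspn 474 in the libraries labelled Zfp292-OE and 110 in Control. The catalytic subunit Pole was thus far below its partner Pole4 per kb. The 5 lowest genes per kb in Control (Chaf1a, Pole, Clspn, Orc1 and Timeless) had transcripts of 3014 to 7163 bases, and the 5 highest (Pole4, Tipin, Rpa3, Rfc3 and Orc6) of 648 to 1317 bases. Pold4, with a short transcript of 913 bases, was low at 677 counts per kb in the libraries labelled Zfp292-OE and 719 in Control. The part of transcript length in these levels was not tested.

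**Figure D5:**
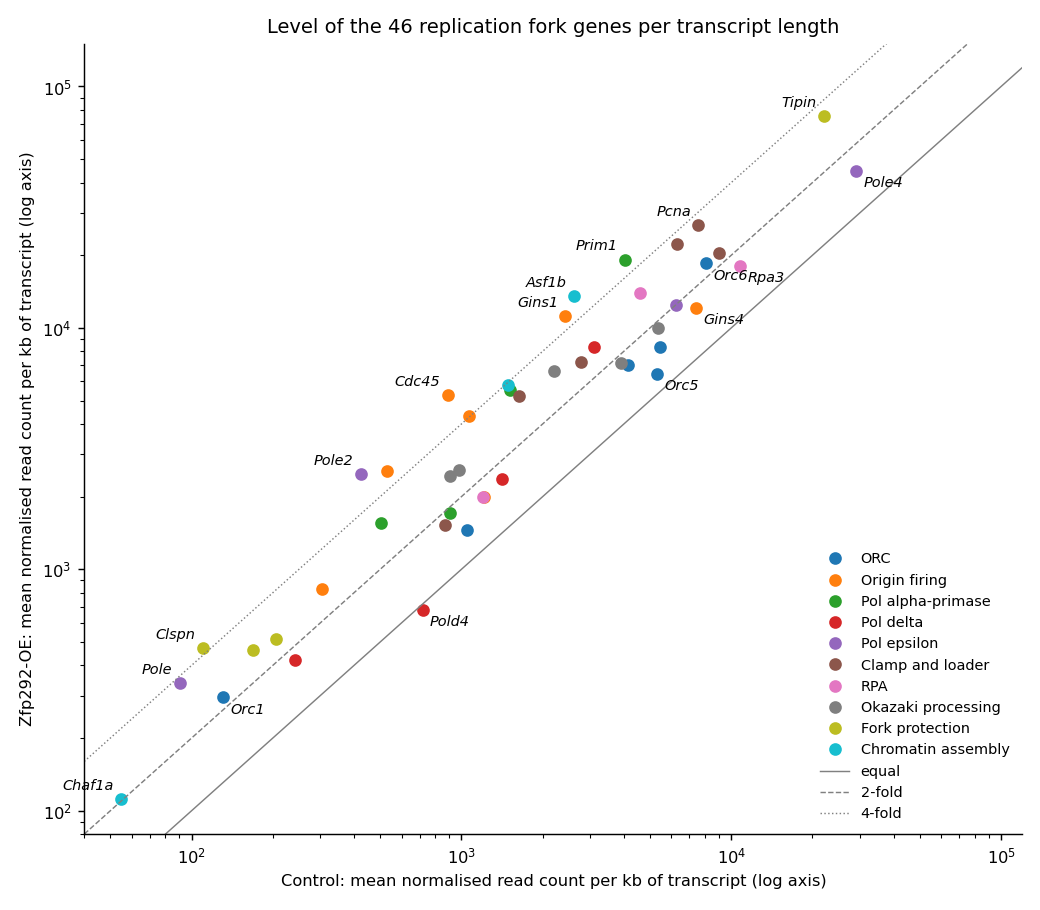
Mean normalised read count per kb of transcript (log axes) in Zfp292-OE (vertical) against Control (horizontal) for the 46 genes, coloured by role group, with lines at equal levels, 2-fold and 4-fold. All points but Pold4 lie above the line of equal levels, and Clspn at 110 and Tipin at 22000 counts per kb in Control are both near the 4-fold line.

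The libraries labelled Zfp292-OE were not alike. Relative to the Control mean, the median member was higher by 1.34 on the log2 scale in library 1, by 1.63 in library 2 and by 0.94 in library 3, whereas the median of all tested genes was −0.03, −0.03 and −0.01. Library 3 was the lowest of its group in 39 of 46 members, against 35.0% of all tested genes, and library 2 was the highest in 33, against 32.2% of all tested genes. Summed counts of the 46 genes were 722301, 767910 and 520906 in the libraries labelled Zfp292-OE, against 288497 and 242310 in the Control libraries. All 3 sums lay above both Control sums, and the gap between the highest and lowest library labelled Zfp292-OE was slightly wider than that between the lowest of them and Control library 1.

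The other replication genes on a list of 26 (the MCM subunits, loading and firing factors, alternative clamp loaders and related genes) moved the same way: 20 were higher and 0 lower by limma. edgeR called 19 higher and 0 lower, DESeq2 21 and 0, and 0 were lower at an unadjusted p below 0.05. Over all tested genes, 10%, 8.28% and 14.6% were called higher by limma, edgeR and DESeq2, and 7.38%, 7.78% and 11.5% lower. Their median log2 fold change was 1.47. Mcm6, a helicase subunit, had 20247, 29561 and 18238 in the libraries labelled Zfp292-OE, against 4108 and 4493 in the Control libraries (log2 fold change 2.37 ± 0.2 SE, limma adjusted p = 0.0003). Cdc6, which loads the helicase, had 3751, 4368 and 3540 in the libraries labelled Zfp292-OE, against 634 and 404 in the Control libraries (log2 fold change 2.93 ± 0.26 SE, limma adjusted p = 0.00032). Mcm3, another helicase subunit, had 7579, 10247 and 6118 in the libraries labelled Zfp292-OE, against 1768 and 1598 in the Control libraries (log2 fold change 2.21 ± 0.23 SE, limma adjusted p = 0.00045). These had the 3 smallest p-values of the list and no overlap between groups. In 24.3% of all tested genes every library labelled Zfp292-OE was above both Control libraries. The 3 with the largest p were Tonsl at a log2 fold change of -0.04, Chtf8 at 0.09 and Recql4 at 1.16, with limma adjusted p of 0.96, 0.82 and 0.4.

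A list of 16 held polymerases, ligases and related enzymes with no main part in copying the nuclear genome. By limma 1 was called higher and 0 lower, and the median log2 fold change was 0.32. edgeR and DESeq2 also called 1 higher and 0 lower each, and at an unadjusted p below 0.05 limma had 3 higher and 0 lower. Over all tested genes, limma, edgeR and DESeq2 called 10%, 8.28% and 14.6% higher and 7.38%, 7.78% and 11.5% lower. At an unadjusted limma p below 0.05 stood 32.8% of all tested genes, in either direction. The 1 called was Rnaseh1, with 2404, 2467 and 2238 in the libraries labelled Zfp292-OE, against 1441 and 1419 in the Control libraries (log2 fold change 0.73 ± 0.21 SE, limma adjusted p = 0.039), a call that was lost with equal totals and without any 1 of the 5 libraries. Poln and Primpol came next, at log2 fold changes of 1.93 and 0.71 and a limma adjusted p of 0.13 for both. Polg, the mitochondrial polymerase, Polk, a translesion polymerase, and Lig3 had the largest p, at log2 fold changes of -0.05, 0.12 and -0.21. Polb, the main polymerase of base excision repair, had 26024, 25086 and 26085 in the libraries labelled Zfp292-OE, against 28848 and 26051 in the Control libraries, a log2 fold change of -0.09. The difference between the 2 lists itself was not tested.

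Cell type markers moved between the same libraries, where limma called 10% of all tested genes higher and 7.38% lower. An unadjusted limma p below 0.05 was found for 32.8% of all tested genes, in either direction. Of 13 rod photoreceptor markers 13 were lower and 0 higher, with summed counts of 183816 to 215697 in the libraries labelled Zfp292-OE and 735570 to 864955 in Control. Of 11 bipolar cell markers 7 were lower and 0 higher, with sums of 123226 to 208939 in the libraries labelled Zfp292-OE and 142277 to 191680 in Control. Grm6, Vsx1 and Bhlhe23 were at 0 in at least 1 library. So were the pericyte markers Acta2, Kcnj8 and Rgs5, the cone marker Opn1mw and the endothelial markers Cdh5 and Tek. Some ganglion cell, microglial, pigment epithelium and red blood cell markers were also at 0 in a library. Of 13 progenitor markers 5 were higher and 1 lower, with sums of 350748 to 401871 in the libraries labelled Zfp292-OE and 251120 to 274148 in Control. Müller glia markers were lower in 4 of 9 and higher in 1, cone markers lower in 4 of 9 and higher in 0, and of 9 ganglion cell markers none passed in either direction (0 at an unadjusted p below 0.05 in limma, and 0 in edgeR and in DESeq2). Of 5 pericyte markers 3 were lower, with sums of 186 to 388 in the libraries labelled Zfp292-OE and 1091 to 2695 in Control. Astrocyte markers were lower in 2 of 4, amacrine and horizontal cell markers lower in 2 of 10 and higher in 1, and endothelial markers higher in 1 of 5. Of 8 microglial, 2 pigment epithelium and 3 red blood cell markers 0 passed in limma, edgeR or DESeq2, with 1 microglial marker lower at an unadjusted limma p below 0.05. Microglial markers summed to 340 to 3401 in the libraries labelled Zfp292-OE and 2457 to 8435 in Control. The part of these cell types in the replication result was not tested.

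The calls rested on both Control libraries. Without either one limma called 0 of the 46 genes, although 38 members without Control library 1 and 36 without Control library 2 had an unadjusted p below 0.05. At that unadjusted threshold stood 27.1% of all tested genes without Control library 1 and 21.8% without Control library 2. After adjustment, over all genes, as among the 26 other replication genes, 0 were called higher. Leaving out library 1, 2 or 3 labelled Zfp292-OE left 30, 30 and 37 members called, where 5.68%, 6.55% and 8.32% of all genes tested were called higher. Without library 1 labelled Zfp292-OE, Orc1, Orc3, Orc4, Pole, Pole4, Gins3, Rpa3, Rnaseh2c and Cdc7 were no longer called, with log2 fold changes of 0.52 to 1.55 and limma adjusted p of 0.054 to 0.13. Without library 2 labelled Zfp292-OE, Orc1, Orc3, Pold3, Pole, Pole4, Rfc1, Rpa3, Rnaseh2c and Cdc7 were no longer called, with log2 fold changes of 0.60 to 1.53 and limma adjusted p of 0.05 to 0.11. Without library 3 labelled Zfp292-OE, Orc1, Orc3 and Orc4 were no longer called, with log2 fold changes of 0.60 to 1.10 and limma adjusted p of 0.085 to 0.1. The 16 fits that kept both Control libraries all called the same 23 members. The other 16, which lost their call in at least 1 of them, were Orc1, Orc3, Orc4, Cdc7, Gins3, Gins4, Pold3, Pole, Pole4, Rfc1, Rpa3, Fen1, Lig1, Rnaseh2a, Rnaseh2c and Wdhd1. Scaling the libraries to equal totals moved the median of all genes to −0.27 and that of the members to 1.15. Such scaling shifts all genes by nearly the same amount. The gap of 1.42 between the members and the median gene is therefore kept by construction and does not check the scaling. With equal totals 31 members were called higher and 0 lower, and over all genes 913 (5.6%) were higher and 1986 (12.2%) lower, against 1632 and 1204 as deposited.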

How the data were processed

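Messenger RNA was measured in 5 libraries from sorted mouse retinal cells, 3 labelled Zfp292-OE and 2 Control. Per the labels' protocols, a SMARTER kit was used on 1.3 µg of RNA. Each gene has a normalised signal, as deposited, in 1 table of 24594 genes with 0 columns of other samples. In each library 100% of the deposited values were whole multiples of 1 step within 1e-06 of a read, so whole reads were recovered. Per the submitters' processing notes the builds were GRCm38 and mm10. How reads were aligned, counted, stranded and scaled is not given in the sources used here.

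Genes with a mean of at least 10 were tested on log2(value + 1) with limma 3.58.1 (R 4.3.3, trend), Zfp292-OE minus Control, adjusted by Benjamini-Hochberg over all 16316 genes at a threshold of 0.05. These fold changes understate the change of low genes. Of the steps used, only the limma fit was tested on simulated counts. Other settings tried were equal totals, TMM, a pseudocount of 0.5 or 10, a filter at 50 or none, edgeR 4.0.16 and DESeq2 1.42.0 on whole reads, the replicate number as a block, and each library left out in turn. Single ratios were compared with an exact permutation test in scipy 1.17.1.

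The members, role groups and gene lists were chosen with earlier results of these data known. All 46 members are named. Of the 26 other replication genes, and of the 16 non-replicative enzymes, those with the 3 smallest and 3 largest p are named. Polb is also named, chosen after its values were seen, and so are Asf1a and Lig4, as partners in the ratios. Transcript lengths are of the GENCODE transcript with the longest coding sequence, a choice made after median lengths had been seen. Promoters are from RefSeq, GRCm38.p6, in which 8 of the 46 genes had no entry. Exon overlaps between genes come from GENCODE.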

Additional observations from a re-analysis of the deposited data

How the results depend on the processing

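The members kept a positive median and 0 were called lower in all 19 alternatives. The count called higher was 31 to 42 over the alternatives that kept all libraries, with medians of 1.15 to 1.48. The 1.48 is from the replicate block described below, in which library 3 labelled Zfp292-OE does not enter the fold changes. Leaving out 1 library gave 0 to 37 members called higher, 0 to 19 of the other replication genes, 0 to 0 of the non-replicative enzymes, 0 to 1359 of all genes higher and 1 to 993 lower. Without library 1 labelled Zfp292-OE 929 genes were higher and 728 lower, and without library 2 so labelled 1069 were higher. Without Control library 1 the smallest adjusted p of a member was 0.054, and without Control library 2 it was 0.11. Those fits leave 1 Control library, which is assumed to vary like the other group. In leave-one-out fits the filter on low values was applied to the libraries left in, a choice made after counts were seen. With the filter over all 5 libraries, chosen after seeing the data, leaving out library 1, 2 or 3 labelled Zfp292-OE gave 24, 24 and 37 members called higher, and either Control library 0. The same fits gave 13, 15 and 18 of the other replication genes, 0 of the non-replicative enzymes, 674, 665 and 1226 of all genes higher and 501, 529 and 850 lower. Without either Control library they gave 0 in each list and 0 over all genes in both directions. With equal totals 913 genes were higher, 1986 lower and 0 of the non-replicative enzymes higher. DESeq2 called 1838 genes lower. The cause of these shifts was not tested. No called value changed sign.

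The replicate numbers of the labels were tried as a replicate block. Deviations from the group means of same-numbered libraries had correlations of −0.0386 and −0.0272 over genes. With 2 Control libraries the Control deviations mirror each other, so these correlations cannot tell if the numbers are pairs. The numbers were not taken as pairs in the main fit. Library 3 labelled Zfp292-OE has no Control library of its number. In the replicate block the fold changes therefore rest on libraries 1 and 2 of each group. The replicate block called 39 members with a median of 1.48, the same median as without library 3 labelled Zfp292-OE. It gained Pola2 and Rpa1 and lost Orc1 and Orc3, and called 0 of the non-replicative enzymes.

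Every member had at least 297 reads in every library. Members with few reads had wide errors: the SE of the log2 fold change was 0.51 for Chaf1a, 0.46 for Pole and 0.36 for Pold4, against 0.15 for Gins4 and Pole3. The part of depth in these errors and in the 7 genes that did not pass was not tested. The number of libraries limits the precision of every value.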
